A study of Mus musculus with 8 samples.

Results

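The 10 genes described here, Fos, Fosb, Jun, Junb, Jund, Egr1, Atf3, Ier2, Myc and Dusp1, are immediate early response genes, taken by symbol from the 55536 genes of the count table, and all 10 were found. They were measured in alphaTC6 cells, a line of mouse pancreatic alpha cells, the cells that make glucagon. The study asked which genes the zinc finger transcription factor Klf4 regulates in such cells. The scramble group (4 libraries) received a non-targeting siRNA and the Klf4 siRNA group (4 libraries) a pool of siRNAs against Klf4. Both groups were reverse transfected with Lipofectamine RNAiMAX for 48 h before poly(A) RNA was sequenced, so all libraries came from transfected cells, and resting or freshly stimulated cells were not analysed here. By the labels, batch 1 held scramble replicates 1 and 2 and Klf4 siRNA replicates 1, 2 and 4, and batch 2 held scramble replicates 3 and 4 and Klf4 siRNA replicate 3. What made a batch was not given in the sources used here. The model is a single cell line, and the siRNA lowered Klf4 RNA without removing it.

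Immediate early genes are switched on within minutes of a stimulus by factors already present in the cell, without new protein synthesis. Signals through the MAP kinases reach them by SRF and its ETS partners, and calcium and cyclic AMP reach them by CREB bound at cyclic AMP response elements (CREs). Their messages are short-lived, so a level is a snapshot of recent signalling, and handling of cells is known to move it. The Fos and Jun families pair to form AP-1, Egr1 and Atf3 are transcription factors in their own right, Myc drives growth genes, and Dusp1 is a phosphatase that switches the MAP kinases off again. In alpha cells, calcium and cyclic AMP are also signals that govern glucagon release.

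The sequence before the start of a gene shows which of these elements lie close to it. Promoters of 7 of the 10 genes matched by symbol in the RefSeq table of GRCm38.p6, and those of Egr1, Ier2 and Myc did not. Of the 7, Fos, Fosb and Jun are shown because they varied most between libraries, and Dusp1 because its pattern was unlike theirs. Each is the 250 bases that end just before the RefSeq start, on the gene's own strand: Fos chr12:85473640-85473889 (plus), Fosb chr7:19310046-19310295 (minus), Jun chr4:95052223-95052472 (minus) and Dusp1 chr17:26508473-26508722 (minus). Capitals mark the full CRE (TGACGTCA), the 5-base CRE core (TGACG) and, in Jun, the letters TGACATCA, known as an AP-1 and CREB-family site of that promoter.
Fos: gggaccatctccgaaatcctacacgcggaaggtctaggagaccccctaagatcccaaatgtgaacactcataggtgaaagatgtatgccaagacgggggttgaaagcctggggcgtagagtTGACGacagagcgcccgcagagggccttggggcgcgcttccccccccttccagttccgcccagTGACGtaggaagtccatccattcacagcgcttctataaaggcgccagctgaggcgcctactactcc
Fosb: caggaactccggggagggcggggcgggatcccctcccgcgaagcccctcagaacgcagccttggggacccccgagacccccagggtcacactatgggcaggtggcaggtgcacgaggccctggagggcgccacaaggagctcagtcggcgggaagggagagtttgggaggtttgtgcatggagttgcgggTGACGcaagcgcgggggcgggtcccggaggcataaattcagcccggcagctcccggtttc
Jun: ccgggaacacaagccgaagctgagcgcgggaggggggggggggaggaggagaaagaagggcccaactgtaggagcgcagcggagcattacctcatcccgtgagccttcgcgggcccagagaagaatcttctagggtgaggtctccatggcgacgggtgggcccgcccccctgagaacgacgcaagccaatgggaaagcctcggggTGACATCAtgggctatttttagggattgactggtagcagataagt
Dusp1: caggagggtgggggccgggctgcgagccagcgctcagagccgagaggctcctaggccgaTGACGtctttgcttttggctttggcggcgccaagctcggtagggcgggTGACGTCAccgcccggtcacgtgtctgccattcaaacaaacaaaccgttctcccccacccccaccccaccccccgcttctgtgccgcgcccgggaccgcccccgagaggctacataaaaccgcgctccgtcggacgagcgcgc

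Dusp1 alone among the 7 held a full CRE, which begins 143 bases before its start, and 1.55% of the 32851 promoters in the table hold one in the same 250 bases. The CRE core TGACG, which a full CRE contains on both strands, was found in Fos, Fosb, Junb, Atf3 and Dusp1, 5 of 7, against 17.8% of all promoters. In Fos it begins 129 and 66 bases before the start, and in Fosb 60 bases before it. TGACATCA, a motif added after the data were seen, was found in Jun alone, 45 bases before its start, and in 2.93% of all promoters. CACCC, the core of the sites that KLF factors bind, was found in 6 of 7 promoters and was not among the letters of the Fos window, against 52% of all promoters. The GC box GGGCGG was found in 5 of 7 (32.7% of all), the ETS core GGAAGT in Fos and Junb (19.7% of all) and the E-box CACGTG in Dusp1 (6.02% of all). No match to TGANTCA, the classical AP-1 site (6.75% of all), or to the CArG box of SRF (1.47% of all) lay in any of the 7 windows. Both strands were searched throughout, motifs may overlap, and a match is a match of letters, not a measured binding site. For Jund the RefSeq start lies upstream of the start in the GENCODE annotation, and its window is left out of the map of motif matches. For Atf3 and Dusp1 it lies well inside the GENCODE span, which runs further upstream, so their windows belong to the RefSeq start alone.

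**Figure D1:**
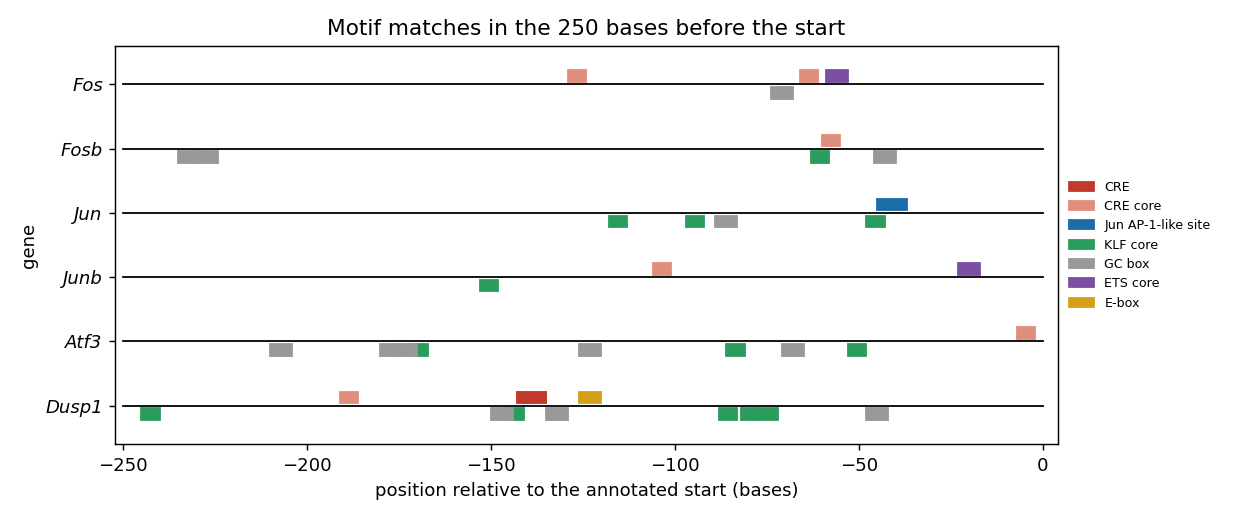
Matches to the searched motifs in the 250 bases before the RefSeq start of Fos, Fosb, Jun, Junb, Atf3 and Dusp1 (x axis, bases relative to the start at 0; 1 line per gene). CRE, ETS, E-box and Jun-site matches are drawn above the line and KLF core and GC box matches below it. Dusp1 has the single full CRE, and Fos has CRE cores at 129 and 66 bases before its start and no KLF core.

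Libraries held from 45954151 to 64185987 counts, and 16333 genes, the 10 members among them, passed the filter on low counts. Klf4 was at 39.2, 35.1, 46.3 and 46.8 CPM (the count once every library is brought to the same total) in scramble replicates 1 to 4 and at 12.5, 11.5, 19.8 and 18.8 CPM in Klf4 siRNA replicates 1 to 4, so every knockdown library was below every control. Alpha cell markers were present: their summed level was 4514 to 4808 CPM in batch 1 and 11462 to 12756 CPM in batch 2, and Gcg, the glucagon gene, was at 1065 to 1257 CPM in batch 1 and 7640 to 8913 CPM in batch 2. The beta cell genes Ins1, Ins2, Pdx1 and Ucn3 were at 0 in all libraries, and beta cell markers summed to at most 3.85 CPM. Delta cell markers summed to 1200 to 1350 CPM, nearly all from Rbp4, while Sst and Hhex had at most 2 and 3 counts in a library. Klf4 siRNA replicate 4 stands apart for the genes described here, so results are given with and without it. Over all genes it lay with batch 1, as labelled: its score on the principal component that held 59.9% of the variance was -20.8, against -19.9 to -23.8 in batch 1 as a whole and 33.3 to 36.7 in batch 2. In bulk RNA, a change in the number of responding cells and a change in RNA per cell cannot be told apart.

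Levels between genes were compared per length, as counts per kilobase of annotated exon on the CPM scale (RPKM). In the scramble libraries Jund, the member of the Jun family known for steady expression, was highest at 171 ± 24.2 RPKM (SD, n = 4), followed by Dusp1 at 52.8 ± 4.18 RPKM (SD, n = 4). Fos (29.4 ± 19.5), Jun (26.2 ± 8.01), Junb (22.2 ± 4.13) and Egr1 (20.4 ± 14.4) formed a middle group, and Atf3 (6.97 ± 3.10), Fosb (3.00 ± 1.68), Ier2 (1.86 ± 1.15) and Myc (1.18 ± 0.142) were lowest, all in RPKM (SD, n = 4). Jund was above Dusp1 in every scramble library with no overlap, whereas the scramble ranges of all other neighbours in this order overlapped. The order was the same in the Klf4 siRNA libraries except that Jun, at 42.9 ± 25.3 RPKM (SD, n = 4), stood above Fos, at 30.6 ± 22.8 RPKM (SD, n = 4), with overlapping ranges. The ratio of the highest to the lowest of the 8 libraries ranged widely: it was 6.83 for Egr1, 5.84 for Fos, 5.08 for Fosb, 4.59 for Jun, 4.02 for Ier2 and 2.57 for Atf3, but 1.69 for Junb, 1.57 for Myc, 1.54 for Dusp1 and 1.5 for Jund. The ratio for Jun rested on Klf4 siRNA replicate 4 and was 2.11 without it, while that of the other 9 genes moved by less than 1.5 times.

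**Figure D2:**
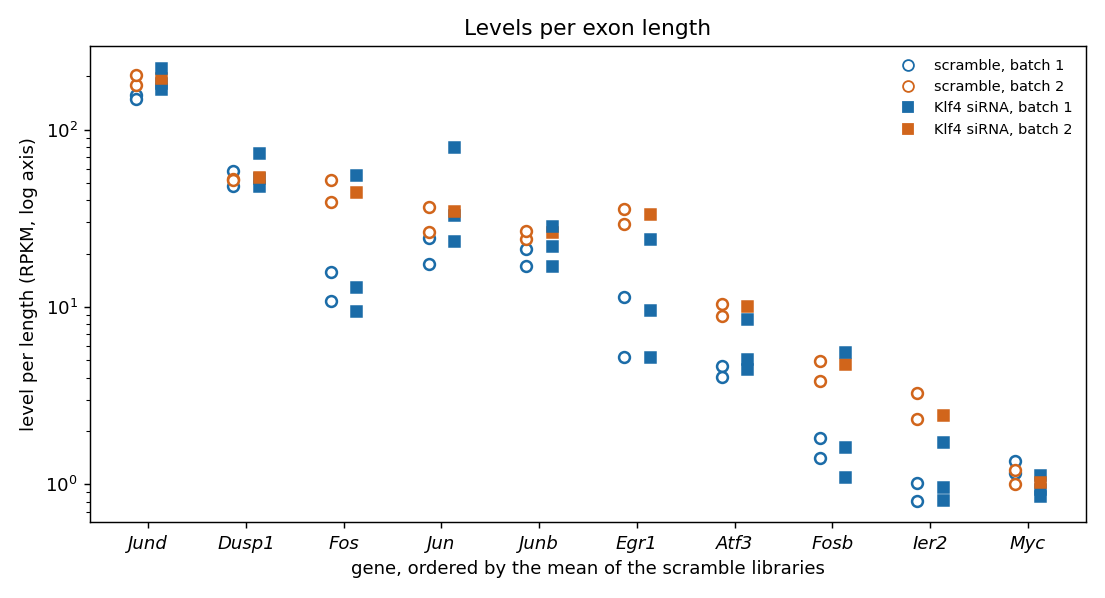
Level per exon length (y axis, RPKM, log axis) of each gene in the 8 libraries (1 point per library), with genes ordered by their scramble mean (x axis). Jund is above every other gene in all libraries, and Egr1, Fos and Fosb spread over a 5-fold range or more.

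Fos (ENSMUSG00000021250, chromosome 12, 85473890 to 85477273 of GRCm38, plus strand) encodes the partner that gives AP-1 its inducible activity. Its level was 36.9, 25.5, 92.2 and 122 CPM in scramble replicates 1 to 4 and 30.6, 22.2, 105 and 130 CPM in Klf4 siRNA replicates 1 to 4. Replicates 3 and 4 were high and replicates 1 and 2 low under both siRNAs, and the 2 treatments overlapped over their whole range. The means were 69.2 ± 45.8 CPM (SD, n = 4) with scramble and 71.9 ± 53.6 CPM (SD, n = 4) with Klf4 siRNA. Fitted with batch as a term, Klf4 siRNA against scramble gave a log2 fold change and standard error (SE) of 0.58 ± 0.71, with a 95% interval of -1.24 to 2.40 (edgeR quasi-likelihood, adjusted p = 0.723). This interval reaches far in both directions, so these libraries set little limit on the response of Fos. With Klf4 siRNA replicate 4 left out, the value was -0.15 with an interval of -0.75 to 0.46 (edgeR adjusted p = 0.785).

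Fosb (ENSMUSG00000003545, chromosome 7, 19302696 to 19310051, minus strand) encodes a second Fos protein, known for long-lived variants in neurons. It was at 11.3, 8.73, 23.9 and 30.9 CPM in scramble replicates 1 to 4 and at 10.1, 6.83, 29.7 and 34.7 CPM in Klf4 siRNA replicates 1 to 4. The pattern matched that of Fos, with replicates 3 and 4 above replicates 1 and 2 in both treatments. The log2 fold change with Klf4 siRNA, 0.50 ± 0.61 (SE, edgeR adjusted p = 0.716), moved to -0.07 when Klf4 siRNA replicate 4 was left out (edgeR adjusted p = 0.902).

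**Figure D3:**
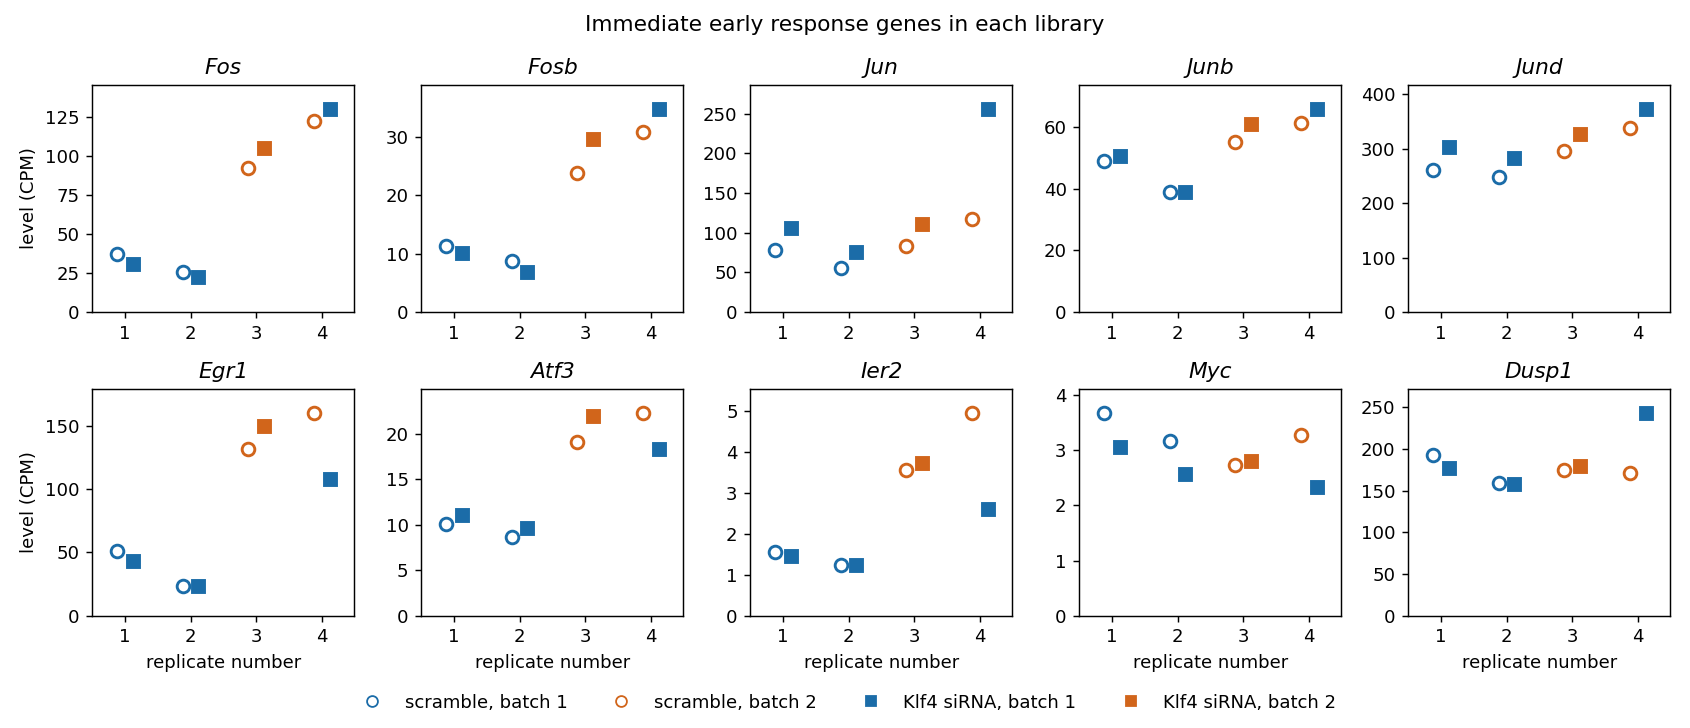
Level of each of the 10 genes (y axis, CPM, from 0) by replicate number (x axis), with treatment shown by symbol and fill and batch by colour, 1 point per library. Fos, Fosb, Egr1, Atf3 and Ier2 are higher in replicates 3 and 4 than in replicates 1 and 2 under both siRNAs, and Klf4 siRNA replicate 4 is the highest point for Fos, Fosb, Jun, Junb, Jund and Dusp1.

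Jun (ENSMUSG00000052684, chromosome 4, 95049034 to 95052222, minus strand, 1 exon) encodes the central partner of AP-1, which stimulates its own promoter. It was at 77.8, 55.7, 83.8 and 117 CPM in scramble replicates 1 to 4 and at 106, 75.3, 111 and 256 CPM in Klf4 siRNA replicates 1 to 4. Klf4 siRNA replicate 4 was more than 2-fold above every other library, and the other 3 knockdown libraries lay within the scramble range. The log2 fold change was 0.78, the largest of the 10 genes, with a standard error of 0.53 and a 95% interval of -0.56 to 2.11 (edgeR adjusted p = 0.470). Leaving out that library gave 0.31 with an interval of -0.34 to 0.96 (edgeR adjusted p = 0.543). Junos, an antisense gene that overlaps Jun, had 34 to 73 counts per library, and whether reads of it are part of the Jun count was not tested.

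Junb and Jund, whose proteins often restrain growth where Jun promotes it, varied less. Junb (ENSMUSG00000052837, chromosome 8, 84974484 to 84978718, minus strand) was at 49.0, 39.1, 55.2 and 61.4 CPM in scramble replicates 1 to 4 and at 50.6, 39.0, 61.1 and 65.8 CPM in Klf4 siRNA replicates 1 to 4. The treatments overlapped, and replicates 3 and 4 were above replicates 1 and 2 in both. Its log2 fold change was 0.17 ± 0.19 (SE, edgeR adjusted p = 0.696), and Prdx2, which overlaps it on the opposite strand, held 12247 to 16736 counts per library, so part of the Junb count could come from it if strand was not used. Jund (ENSMUSG00000071076, chromosome 8, 70698949 to 70700616, plus strand, 1 exon) was at 260, 248, 296 and 338 CPM in scramble replicates 1 to 4 and at 303, 283, 327 and 373 CPM in Klf4 siRNA replicates 1 to 4. In batch 1 all 3 knockdown libraries were above both scramble libraries, and in batch 2 the knockdown library lay between the 2 scramble libraries. The log2 fold change of Jund was 0.23 ± 0.12 (SE) with a 95% interval of -0.08 to 0.54 (edgeR adjusted p = 0.349). It was 0.14 (interval -0.0014 to 0.29) without Klf4 siRNA replicate 4 (edgeR adjusted p = 0.213).

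Atf3 (ENSMUSG00000026628, chromosome 1, 191170296 to 191218039, minus strand) encodes a stress-induced factor of the ATF and CREB family that pairs with Jun proteins. It was at 10.05, 8.67, 19.1 and 22.2 CPM in scramble replicates 1 to 4 and at 11.02, 9.60, 21.9 and 18.3 CPM in Klf4 siRNA replicates 1 to 4. All 4 libraries of replicates 3 and 4 were above all 4 of replicates 1 and 2, while the treatments overlapped. With Klf4 siRNA its log2 fold change was 0.31 ± 0.26 (SE, edgeR adjusted p = 0.560).

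Egr1 (ENSMUSG00000038418, chromosome 18, 34859823 to 34864984, plus strand) encodes a zinc finger factor induced by calcium and growth factor signals. It was at 51.0, 23.5, 131 and 160.0 CPM in scramble replicates 1 to 4 and at 43.0, 23.4, 150 and 108 CPM in Klf4 siRNA replicates 1 to 4. Replicate 2 was lowest in both treatments, and here Klf4 siRNA replicate 4 was below the batch 2 libraries, though above the rest of batch 1. The log2 fold change with Klf4 siRNA, 0.40 ± 0.58 (SE, edgeR adjusted p = 0.768), moved to -0.08 when Klf4 siRNA replicate 4 was left out (edgeR adjusted p = 0.933).

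Ier2 (ENSMUSG00000053560, chromosome 8, 84661331 to 84662852, minus strand, 1 exon) encodes a small nuclear protein of the early response. It was at 1.56, 1.23, 3.56 and 4.96 CPM in scramble replicates 1 to 4 and at 1.46, 1.25, 3.74 and 2.62 CPM in Klf4 siRNA replicates 1 to 4. The batch 2 libraries were all above the batch 1 libraries, and the highest of batch 1 was Klf4 siRNA replicate 4. With Klf4 siRNA the log2 fold change was 0.08 ± 0.28 (SE, edgeR adjusted p = 0.914).

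Myc (ENSMUSG00000022346, chromosome 15, 61985391 to 61990374, plus strand) did not follow the others. It was at 3.67, 3.17, 2.73 and 3.28 CPM in scramble replicates 1 to 4 and at 3.07, 2.56, 2.81 and 2.34 CPM in Klf4 siRNA replicates 1 to 4. The treatments overlapped, since scramble replicate 3 was below Klf4 siRNA replicates 1 and 3, and Klf4 siRNA replicate 4 was the lowest library. Its log2 fold change, -0.27 ± 0.11 (SE, 95% interval -0.51 to -0.04), did not pass the threshold (edgeR adjusted p = 0.136).

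Dusp1 (ENSMUSG00000024190, chromosome 17, 26505590 to 26562128, minus strand) is itself induced by the MAP kinases that its protein inactivates. It was at 193, 160, 175 and 172 CPM in scramble replicates 1 to 4 and at 177, 158, 179 and 243 CPM in Klf4 siRNA replicates 1 to 4. Klf4 siRNA replicate 4 was the highest and the other 7 libraries lay close together, with no separation of the batches. The log2 fold change was 0.10 ± 0.16 (SE, edgeR adjusted p = 0.795). Ergic1, on the opposite strand within the Dusp1 span, held 15080 to 21404 counts per library, so the same reservation on strand applies as for Junb.

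Compared over all libraries, 0 of the 10 genes passed the threshold between Klf4 siRNA and scramble (edgeR, adjusted p under 0.05), where 11.7% of the 16333 tested genes did. Myc was the 1 of 10 members with an unadjusted p under 0.05 (edgeR), as were 3908 of the 16333 tested genes. The Wald test of DESeq2 called 0 members (11.2% of all tested genes) but gave no adjusted p for Ier2. With limma-voom 0 of 10 were called (10.3% of all). The fitted log2 fold change was positive for 9 of 10 members, with a median of 0.27 against 4.3e-05 over all tested genes. The errors were large: the median standard error of the members was 0.267 on the log2 scale, against 0.0558 over all tested genes. The positive median rested on a single library. Without Klf4 siRNA replicate 4, 4 of 10 were positive, the median was -0.05, and 0 of 10 passed the threshold, where 12.1% of 16682 tested genes did. In that fit the median standard error of the members was 0.138, and the log2 fold changes not yet given were 0.04 for Junb, 0.11 for Atf3, -0.13 for Ier2 (interval -0.41 to 0.16), -0.21 for Myc and -0.02 for Dusp1 (interval -0.26 to 0.22), each with an edgeR adjusted p of at least 0.249. By replicate number, a grouping chosen after the values were seen, replicates 3 and 4 were above replicates 1 and 2 with no overlap for Fos, Fosb, Junb, Egr1, Atf3 and Ier2, 6 of 10 members, and for 6.67% of all tested genes. Among the members neither order of the treatments was without overlap, whereas Klf4 siRNA was above scramble without overlap for 4.97% of all tested genes and below it for 5.55%.

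**Figure D4:**
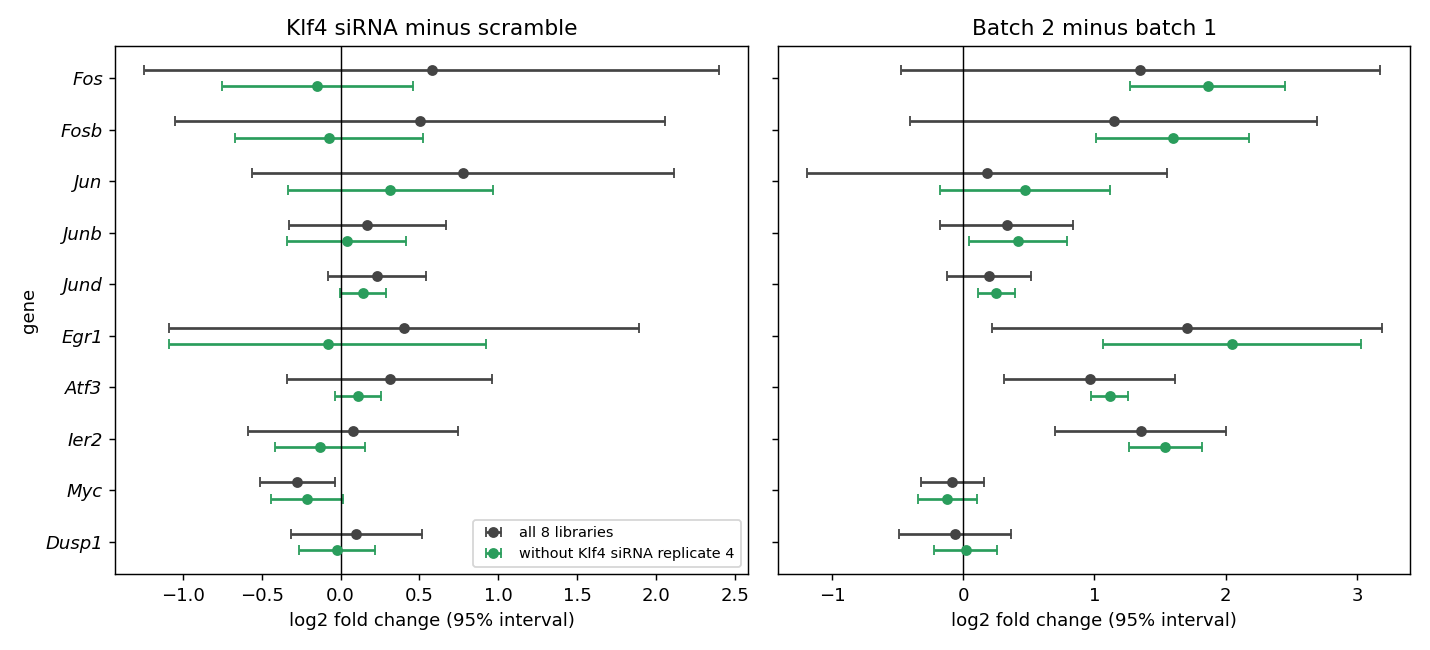
Log2 fold change (x axis) of each gene (y axis) with its 95% interval, for Klf4 siRNA against scramble and for batch 2 against batch 1, with all 8 libraries and without Klf4 siRNA replicate 4. All 20 intervals of the treatment comparison except that of Myc with 8 libraries (-0.51 to -0.04) include 0, and most intervals narrow when the library is left out.

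Batch was compared in the same fit. Atf3 and Ier2 were higher in batch 2, 2 of 10 members, where 32.7% of all tested genes differed in either direction and 16.8% were higher in batch 2 (edgeR, adjusted p under 0.05). Ier2 was 2.55-fold higher (log2 1.35, standard error 0.27, edgeR adjusted p = 0.0085). Atf3 was 1.95-fold higher (log2 0.97, standard error 0.26, edgeR adjusted p = 0.0397), a call that was lost when any of the 7 libraries other than Klf4 siRNA replicate 4 was left out in turn (adjusted p up to 0.120), with the log2 difference from 0.88 to 1.14 in those fits. The log2 difference was 1.70 for Egr1 (edgeR adjusted p = 0.0857), 1.35 for Fos (0.232) and 1.15 for Fosb (0.233), each with a standard error over 0.5, and did not pass. The tools differed here: the Wald test of DESeq2 called 3 members (28.9% of all tested genes), adding Egr1 (adjusted p = 0.019), and limma-voom called 6 (32% of all), adding Egr1 (0.0008), Fos (0.0081), Fosb (0.0080) and Junb (0.049). The differences of Junb (0.33), Jund (0.20), Jun (0.18), Dusp1 (-0.06) and Myc (-0.08) were smaller. Endothelial markers, whose sum was 1.45 to 2.01 CPM in batch 1 and 6.26 to 7.65 CPM in batch 2, duct markers, with 3.17 to 4.14 and 6.45 to 8.0 CPM, and immune markers, with 1.59 to 1.74 and 2.01 to 2.52 CPM, moved with batch as Gcg did, and their part in these differences was not tested.

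The batch comparison of the members was repeated without Klf4 siRNA replicate 4. That library was singled out by its values for these same genes, so the adjusted p-values of this fit depend on that choice and are a description. Leaving out any of the other 7 libraries in turn gave 1 member past the threshold, where 23.2% to 31.9% of all tested genes passed. Fos, Fosb, Jund, Egr1, Atf3 and Ier2 were then higher in batch 2, 6 of 10 members, against 19% of all genes tested in that fit. The log2 differences were 1.86 for Fos (edgeR adjusted p = 0.0036), 1.59 for Fosb (0.0057), 2.05 for Egr1 (0.0145), 1.54 for Ier2 (3.93e-09), 1.11 for Atf3 (2.54e-10) and 0.25 for Jund (0.0157). Junb, at 0.42, and Jun, at 0.47, did not pass (edgeR adjusted p = 0.0851 and 0.221), and Myc (-0.12) and Dusp1 (0.02) had adjusted p of 0.426 and 0.896. With all 8 libraries, batch 2 was above batch 1 with no overlap for Egr1, Atf3 and Ier2 (15.8% of all tested genes). Without the library this also held for Fos, Fosb and Junb (18.2% of all). Whether the effect of Klf4 siRNA differed between batches was tested as an interaction, and 0 of 10 members and 0 (0%) of 16333 genes passed (edgeR), with 0 members and 540 genes at an unadjusted p under 0.05. Batch 2 holds 1 Klf4 siRNA library, and the standard errors of this interaction were 0.234 to 1.52 on the log2 scale for the members.

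Klf4 siRNA replicate 4 was then set against Klf4 siRNA replicates 1 and 2, which share its label of treatment and batch. This is a description of 1 library, with no test. Klf4 itself was higher in it by 0.65 on the log2 scale, at 18.8 CPM against 12.5 and 11.5 CPM, and close to the 19.8 CPM of Klf4 siRNA replicate 3, and the part of this in the early gene levels was not tested. On the log2 scale it was higher by 2.31 for Fos, 2.06 for Fosb, 1.77 for Egr1, 1.52 for Jun, 0.94 for Ier2, 0.83 for Atf3, 0.57 for Junb, 0.54 for Dusp1 and 0.35 for Jund, and Myc was at -0.26. A difference over 0.5 was thus found for 8 of 10 members, against 543 of 16333 tested genes (3.32%), and no member was below -0.5 (2.88% of all). The batch 2 libraries showed a like order for some genes and not for others. Between the scramble libraries alone, batch 2 minus batch 1 was 2.07 for Egr1, 1.79 for Fos, 1.57 for Ier2, 1.45 for Fosb, 1.14 for Atf3 and 0.59 for Jun, while Dusp1 was at -0.02. Junb was at 0.41 and Jund at 0.32. Jun, Fosb, Dusp1 and Fos had a larger difference in Klf4 siRNA replicate 4 than between the scramble batches, by 0.5 or more, and Egr1, Atf3 and Ier2 a smaller one. Of the 1369 tested genes with a scramble batch difference over 0.5, 135 (9.86%) were also higher by over 0.5 in Klf4 siRNA replicate 4, and among the members 6 of 6 were. Mesenchymal markers summed to 27.2 CPM in that library, above the 18.9 to 21.6 CPM of the other batch 1 libraries, and their part in its early gene levels was not tested. Gcg, at 1231 CPM there, stayed within 1065 to 1257 CPM, its batch 1 range. In the scramble libraries 4198 genes differed between batches (edgeR, adjusted p under 0.05). For 3058 of these (72.8%) Klf4 siRNA replicate 4 was nearer to Klf4 siRNA replicates 1 and 2 than to replicate 3. Among all 10 members, of which 4 are in that set, this held for 1, so the shares rest on unlike sets. That member was Myc, at -0.258 from replicates 1 and 2 and -0.262 from replicate 3 (log2).

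**Figure D5:**
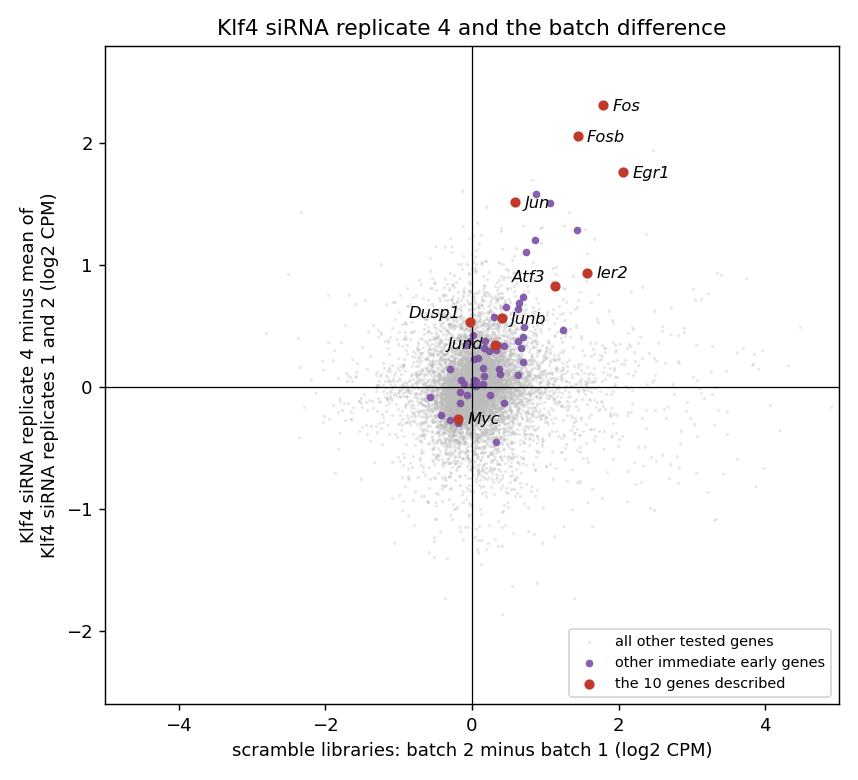
Klf4 siRNA replicate 4 minus the mean of Klf4 siRNA replicates 1 and 2 (y axis, log2 CPM) against batch 2 minus batch 1 in the scramble libraries (x axis, log2 CPM), 1 point per tested gene, with 7 genes outside the axes. Fos, Fosb, Egr1, Jun, Ier2 and Atf3 lie to the upper right, Dusp1 lies above 0 on the y axis alone, and most genes lie near 0 on the y axis.

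The spread that treatment and batch leave differed among these genes. The residual standard deviation, on the log2 CPM scale with a prior count of 2, was 0.898 for Fos, 0.800 for Egr1, 0.795 for Fosb and 0.656 for Jun, each at or above the percentile 99.3 of all tested genes, whose median was 0.0768. The other 6 members lay at percentiles from 72.1 to 94.5. It was 0.415 for Ier2, 0.339 for Atf3, 0.267 for Junb, 0.221 for Dusp1, 0.182 for Myc and 0.166 for Jund. Without Klf4 siRNA replicate 4 it was 0.296 for Fos, 0.298 for Fosb and 0.310 for Jun (percentiles 87.5, 87.6 and 88.8), 0.223 for Ier2, 0.184 for Junb, 0.161 for Myc, 0.131 for Atf3, 0.119 for Dusp1 and 0.094 for Jund. It was 0.515 for Egr1 (percentile 97.5), in which scramble replicate 1 and Klf4 siRNA replicate 1 were about 2-fold above their replicates 2. The 5 genes with the most similar pattern over the 8 libraries, after batch and treatment were fitted out, were Srf (Pearson r = 0.994), Sin3a (0.991), Nup62 (0.991), Ddx5 (0.986) and 2810013P06Rik (0.984), out of 10381 genes with a mean of at least 5 CPM. They are like the members in shape and not in size: Srf was at 61.9, 58.3, 57.0 and 59.4 CPM in scramble replicates 1 to 4 and at 55.3, 52.6, 53.3 and 60.5 CPM in Klf4 siRNA replicates 1 to 4. In Klf4 siRNA replicate 4, Fos lay 1.62 and Srf 0.11 above the fit on the log2 scale. With that library left out and the fit repeated on 7 libraries, the r of the 5 genes was 0.984, 0.983, 0.967, 0.945 and 0.997 in the same order. The 5 genes were picked on data that include these 7 libraries, so this is a description and no check of the likeness.

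Other immediate early genes were then read from a list of 54, of which 50 were tested. With Klf4 siRNA, 1 rose and 4 fell (edgeR, adjusted p under 0.05), 2% and 8%, against 4.88% and 6.81% of all tested genes, and the median log2 fold change was 0.04. Mcl1, which encodes a survival protein of the Bcl-2 family, fell by 0.22 on the log2 scale (edgeR adjusted p = 4.6e-05) from 110 to 117 CPM in scramble libraries to 91.8 to 105 CPM after Klf4 siRNA. Ier5l, a relative of Ier2, fell by 0.25 (edgeR adjusted p = 0.0169). Egr2, a relative of Egr1, fell by 0.82 (edgeR adjusted p = 0.0378) at levels from 0.10 to 0.86 CPM. Rgs2, a regulator of G protein signalling named after its value was seen, fell by 0.20 (edgeR adjusted p = 0.0438), and did not pass without Klf4 siRNA replicate 4 (log2 -0.18, 0.0671). The gene that rose was Klf6, a KLF family factor, at 0.18 (edgeR adjusted p = 0.0389), also lost without that library (log2 0.15, 0.0609). Without that library 2 of 51 (3.92%) rose and 6 (11.8%) fell, against 5.35% and 6.76% of all genes tested in that fit. The count moved with single libraries, from 1 gene in all without scramble replicate 1 and 2 without scramble replicate 2 or Klf4 siRNA replicate 1 to 8 without Klf4 siRNA replicate 4, and it was 3 without scramble replicate 3 or 4.

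Between batches, 15 of the 50 other early genes were higher and 5 lower in batch 2, 30% and 10% against 16.8% and 15.9% of all tested genes. The count higher was 30 of 51 (58.8%, against 19% of all genes in that fit) when Klf4 siRNA replicate 4 was left out. Among those with the smallest adjusted p were Sgk1, a kinase of the salt and glucocorticoid response (log2 0.25, edgeR adjusted p = 5.8e-07), Ier5l (0.48, 9.1e-06) and the cyclic AMP factor Crem (0.33, 0.00013), while the phosphatase gene Dusp5 was lower (-0.42, 1.88e-05). In Klf4 siRNA replicate 4, 10 of 50 (20%) were over 0.5 above Klf4 siRNA replicates 1 and 2, and none was below -0.5. Named after their values were seen, Zfp36 (1.59), Nr4a1 (1.51), Egr4 (1.29), Klf2 (1.21) and Npas4 (1.11) differed most on that log2 scale. Nr4a1, a nuclear receptor gene, was at 98.0, 111, 216 and 222 CPM in scramble replicates 1 to 4 and at 89.0, 94.3, 211 and 261 CPM in Klf4 siRNA replicates 1 to 4, so it was high in the same 4 libraries as Fos.

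The partners and upstream regulators of the early genes were read in the same way, with 4.88% of all tested genes higher and 6.81% lower after Klf4 siRNA. Of 17 tested genes for AP-1 partners, 0 rose and 2 (11.8%) fell (edgeR; median of the list -0.03), among them Jdp2, a repressor that pairs with Jun, by 0.22 on the log2 scale (adjusted p = 0.0134). At the same threshold and without Klf4 siRNA replicate 4, 2 (11.8%) rose and 3 (17.6%) fell, against 5.35% and 6.76% of all genes tested in that fit. Of 29 tested genes of the kinase and SRF or CREB pathways that reach these promoters, 1 (3.45%) rose and 4 (13.8%) fell, with a median of -0.02. The gene that rose was Mapk8, which encodes the JNK1 kinase that activates Jun, at 0.34 (edgeR adjusted p = 1.18e-05): it was at 31.4, 33.8, 39.3 and 40.7 CPM in scramble replicates 1 to 4 and at 42.1, 40.6, 47.9 and 45.0 CPM in Klf4 siRNA replicates 1 to 4. The groups overlapped only between scramble replicate 4 and Klf4 siRNA replicate 2, and knockdown was above scramble within each batch. Rps6ka1, a kinase below ERK, fell by 0.20, the SRF partner Elk4 by 0.15 and the CREB coactivator Crtc1 by 0.13 (edgeR adjusted p = 0.0015, 0.0133 and 0.0104). The remaining gene that fell, named after its value was seen, was Mapk14, for the p38 kinase, by 0.09 (edgeR adjusted p = 0.0355), a call lost without Klf4 siRNA replicate 4 (log2 -0.08, 0.0555). With that library left out, 2 of the 29 (6.9%) rose and 4 (13.8%) fell, against 5.35% and 6.76% of all genes in that fit. Neither list had a gene over 0.5 above or below in Klf4 siRNA replicate 4.

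Among the other MAP kinase phosphatases related to Dusp1, 0 rose and 1 (14.3%) fell of 7 tested (edgeR), against 4.88% and 6.81% of all tested genes. Dusp10, whose protein acts on JNK and p38, fell by 0.37 on the log2 scale (edgeR adjusted p = 0.0014). It was at 173, 166, 159 and 169 CPM in scramble replicates 1 to 4 and at 133, 139, 130 and 117 CPM in Klf4 siRNA replicates 1 to 4. The groups did not overlap, an order found for 5.55% of all tested genes. In the Myc network of 11 tested genes, 2 (18.2%) rose and 1 (9.09%) fell, against 4.88% and 6.81% of all tested genes. Mxi1, a repressor that competes with Myc for Max, fell by 0.40 (edgeR adjusted p = 7.47e-07), and the repressor genes Mnt and Mxd4 rose by 0.15 and 0.12 (edgeR adjusted p = 0.0104 and 0.0254). Of 20 Myc target genes, 2 (10%) rose and 0 (0%) fell, against 4.88% and 6.81% of all tested genes. Odc1, for polyamine synthesis, rose by 0.13 and Ddx21, for ribosome production, by 0.12 (edgeR adjusted p = 0.0051 and 0.0083). Neither of the 2 tested corepressors of Egr1, Nab1 and Nab2, passed the threshold with Klf4 siRNA (11.7% of all tested genes). Of the 2, 1 was higher in batch 2, as were 16.8% of all tested genes.

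The list of 17 genes of the ATF4 response, to which Atf3 belongs in amino acid and endoplasmic reticulum stress, had 1 gene (5.88%) that rose and 2 (11.8%) that fell with Klf4 siRNA (edgeR, adjusted p under 0.05), against 4.88% and 6.81% of all tested genes. Phgdh, for serine synthesis, fell by 0.22 on the log2 scale (adjusted p = 0.00044) and Atf5 by 0.12 (adjusted p = 0.0086), and Slc7a11, the cystine transporter, rose by 0.35 (adjusted p = 0.0023). Without Klf4 siRNA replicate 4, 1 rose and 8 fell, 47.1% lower against 6.76% of all genes tested in that fit, and the list's median log2 change was -0.09, against -0.05 with all 8 libraries. In that library 2 of the 17 (11.8%, against 3.32% of all) were over 0.5 above Klf4 siRNA replicates 1 and 2, and none was below -0.5.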

How the data were processed

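The deposited table holds whole-number counts per gene for 8 libraries, not normalized. The submitters' processing notes name FastQC, STAR, featureCounts, DESeq2 and the genome build mm10 without saying how each was used, the design text names edgeR with batch correction, and use of strand is not given in the sources used here. The labels' protocol text also speaks of islets, whereas every sample is labelled alphaTC6. The design text calls the replicates biological, and whether they were separate transfections is not stated, so p-values measure the spread between these libraries.

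Genes were filtered with filterByExpr, scaled with TMM and fitted with batch and treatment in edgeR 4.0.16 (R 4.3.3, robust quasi-likelihood, 5 residual degrees of freedom). P-values are two-sided, adjusted by Benjamini-Hochberg over all tested genes, with 0.05 as the threshold. Standard errors come from the size of the log2 fold change over the root of its F statistic. CPM uses TMM-scaled library sizes, and RPKM divides it by the exon union of GENCODE M21 (GRCm38), whose identifiers matched all genes. Promoters are RefSeq's. DESeq2 1.42.0, limma 3.58.1, other filters and scalings, single libraries left out, batch 1 alone, no batch term and a replicate block were the alternatives. Placing Klf4 siRNA replicate 4 in batch 2 was added after the data were seen. On simulated counts for this comparison (16121 genes), genes of at least 5 CPM with a log2 change of 1 were recovered in 100% of 57 cases and those with 0.3 in 89.7% of 58. Over all changed genes, low counts included, recovery was 87% and 53%, and 16 of 156 calls were false. The changed genes were drawn at random from all tested genes, each with its own spread. The members' median standard error was 0.267, against 0.0558 over all tested genes, so these shares do not apply to the members. Counts carry no molecular identifiers, so counting error was not used.

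The 10 genes, the related lists and the tests were chosen with earlier results of these data known. Each list contributed named genes by smallest adjusted p among those that passed, no more than 4, for treatment and, in the list of other early genes, for batch. Also named were the 5 genes whose residuals correlated best with the mean of the members' standardised residuals. A gene of the list of AP-1 partners is not reported here.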

Additional observations from a re-analysis of the deposited data

Results flagged for a closer look

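In batch 1, Klf4 siRNA replicate 4 lay apart from the other 4 libraries for 5 of the 10 genes, by the gap to the next library divided by the range of the group. This share was 0.863 for Fos, 0.839 for Fosb, 0.765 for Ier2, 0.756 for Atf3 and 0.75 for Jun, each past Dixon's 95% critical value, and in each case the library was the highest. For the members, 5 of 30 groups passed this bound, where 1 in 20 by chance would give 1.5, and all 5 rest on the same library. Its endothelial and immune markers summed to 1.72 and 1.62 CPM, against 1.45 to 2.01 and 1.59 to 1.74 CPM in the other 4, its duct markers to 3.17 CPM, against 3.72 to 4.14, and its mesenchymal markers to 27.2 CPM, against 18.9 to 21.6. The source of its high early gene levels was not tested.

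Among the other genes named, the same library was apart for Rps6ka1 within the Klf4 siRNA group, at 30.8 CPM against 29.3 to 29.6 CPM in the other 3, a share of 0.83, just past the critical value. This was 1 of 69 groups, where chance would give 3.45.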

How the results depend on the processing

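The count of members past the threshold with Klf4 siRNA was 0 under every alternative run except the replicate block in place of batch, where Jund passed (log2 0.17, edgeR adjusted p = 0.0064), 1 of 10. For batch, 2 members passed (32.7% of all tested genes), against 3 with the Wald test of DESeq2 (28.9%), 6 with limma-voom (32%), 7 with Klf4 siRNA replicate 4 placed in batch 2 (17.6%), 4 in the scramble libraries alone (27.3%), 1 with no filter (17.9%) and 1 of 8 when genes under a mean of 5 CPM were dropped (39.1%), and from 1 to 6 with a library left out. For the other early genes, 5 passed with Klf4 siRNA, against 3 with library size alone, 1 with no batch term and 3 in batch 1 alone, and from 1 to 8 with a library left out. For batch 20 passed, and from 13 to 36 with a library left out. Among the members' treatment values, 14 changed sign. With Klf4 siRNA replicate 4 left out the log2 fold change was -0.024 for Dusp1, -0.081 for Egr1, -0.15 for Fos, -0.071 for Fosb and -0.13 for Ier2. With that library in batch 2 it was -0.18 for Egr1, -0.041 for Fos and -0.26 for Ier2. With no batch term it was -0.18 for Egr1 and -0.32 for Ier2. With the replicate block it was -0.16 for Egr1, -0.030 for Fos and -0.25 for Ier2, and without scramble replicate 2 it was -0.031 for Ier2. Among batch values 6 changed sign: Dusp1 to 0.020 without Klf4 siRNA replicate 4 and 0.15 with it in batch 2, Jun to -0.036 and -0.048 without scramble replicates 2 and 4, and Myc to 0.0053 and 0.0079 without scramble replicates 1 and 3. With a library left out, the treatment values otherwise reached 0.631 for Egr1 (without scramble replicate 1) and 0.956 for Fos, 0.772 for Fosb and 0.334 for Ier2 (without Klf4 siRNA replicate 3), and the batch values reached 0.588 for Jun and -0.193 for Myc (without Klf4 siRNA replicate 3). They ran from -0.024 to 0.172 for Dusp1, 0.039 to 0.266 for Junb, 0.143 to 0.332 for Jund, 0.110 to 0.468 for Atf3, 0.314 to 1.121 for Jun and -0.373 to -0.179 for Myc for treatment, and from 0.121 to 0.319 for Jund and -0.132 to 0.020 for Dusp1 for batch. The cause was not tested. Replicate numbers did not pair the libraries: deviations of libraries with the same number correlated at 0.49, 0.42, 0.72 and -0.34 for replicates 1 to 4 and at -0.0005, -0.04, -0.30 and 0.12 after batch was fitted out, and 2 of 4 scramble and 3 of 4 Klf4 siRNA libraries correlated best with their own number. The block called 1220 genes, against 1909. The interaction could not be fitted without Klf4 siRNA replicate 3. Ier2 and Myc had from 58 to 287 counts per library.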
